A study of Mus musculus with 6 samples.

Results

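The genes described here are 10 genes of lipoprotein assembly in mouse liver, Apoa1, Apoa2, Apoa4, Apoa5, Apob, Apoc3, Apoe, Apom, Mttp and Lcat, taken as every array probe that carries a gene's symbol as its name. All 10 were found, with 16 probes, of 27962 gene names on the array. Expression was measured in liver of male 129/Sv mice that were 6 to 8 weeks old when treatment began. The alcohol group was given free access to a liquid diet with 4% ethanol (Lieber-DeCarli), and the control group to a diet of equal calories with maltose dextran in its place. The study's methods state that mice of both groups received the control diet alone for a run-in of 7 days. At 1, 2 and 4 months RNA of 6 mice per group was pooled, so that an alcohol pool and a control pool exist for each month, 6 pools in all, and no variation between mice can be measured. The pools of a month were hybridized together on 2 two-color arrays with the dyes Cy5 and Cy3 exchanged. Both arrays hold the same RNA and are 1 replicate. Values of a month are given as the mean ± SD of its 2 arrays, which is a technical spread.

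Lipids travel in blood as particles wrapped in apolipoproteins, most of which hepatocytes make in large amounts. Apolipoprotein B is the backbone of very low density lipoprotein, and microsomal triglyceride transfer protein, the product of Mttp, loads lipid onto it in the endoplasmic reticulum. High density lipoprotein is built on apolipoproteins A-I and A-II and matures when the enzyme made from Lcat esterifies its cholesterol. Smaller exchangeable apolipoproteins, among them A-V, C-III and E, set how quickly particles lose triglyceride or are taken up. Export of lipid in such particles is one of the ways by which the liver disposes of fat.

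None of the 10 genes changed by the rule used at a month, which asks for an averaged ratio of at least 1.5-fold with the same direction on both arrays. At 1 month 0 of 10 were raised and 0 of 10 lowered, where 0.562% of the 37922 probes tested were raised and 0.63% lowered. At 2 months the counts were again 0 and 0, against 1.17% of probes raised and 1.28% lowered, and at 4 months 0 and 0, against 2.03% raised and 1.46% lowered. With shares this low, a count of 0 of 10 is near the background. The median log2 ratio of alcohol over control over the 10 genes was 0.03 ± 0.27, -0.02 ± 0.17 and 0.03 ± 0.27 (1, 2 and 4 months). The same median over all probes tested was 0.00, 0.01 and -0.01. The median size of the ratio without its sign was 0.11, 0.16 and 0.08 for the 10 genes, beside 0.09, 0.11 and 0.11 for all probes.

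**Figure D1:**
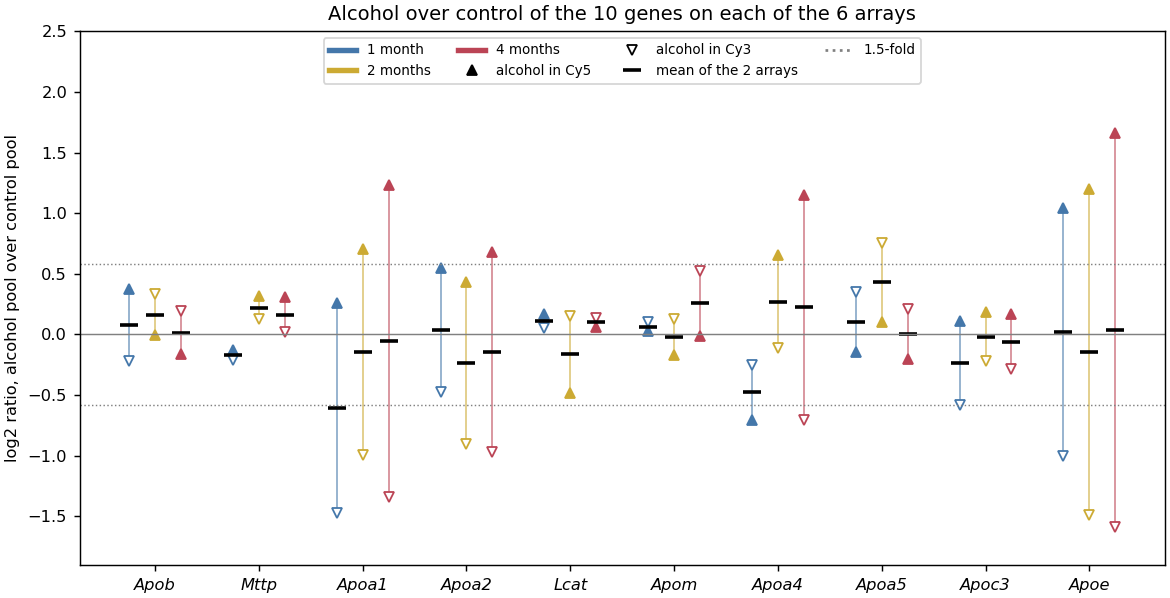
Log2 ratio of alcohol over control (y axis) of each gene's first-named probe on each of the 6 arrays. Colors mark the month, filled triangles the array with alcohol in Cy5, open triangles the array with alcohol in Cy3, bars the mean of both, and dotted lines 1.5-fold. For Apoe, Apoa1 and Apoa2 the triangles lie on opposite sides of 0 at every month, whereas those of Mttp lie on the same side.

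Across the months the limma test of the 3 monthly ratios against 0 called 0 of the 37922 probes at an adjusted p of 0.05, a share of 0.0%, and so none of the 10 genes. The test of a slope over log2 months also called 0 probes, 0.0%. Without adjustment 3028 and 2813 probes passed 0.05. Among the first-named probes of the 10 genes, adjusted p values of the effect lay between 0.633 and 0.995 and those of the slope between 0.664 and 0.998. These tests use the 3 months as replicates and do not address a change at a single month.

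The promoters of 3 genes are shown because their ratios had the same sign on both arrays of a month. Apoa4 had the largest such mean ratio of the 10 genes at 1 month and Apoa5 at 2 months, and Mttp had the same sign on both arrays at all 3 months. Each sequence is the 250 bases before an annotated start, from a table made from RefSeq (GRCm38.p6), 5′ to 3′ on the gene's strand. Capitals mark CAAAG or its reverse complement CTTTG, letters found in many sites of the hepatocyte factor HNF4A, and TATAAA.
Apoa4, chr9:46240594-46240843, plus strand: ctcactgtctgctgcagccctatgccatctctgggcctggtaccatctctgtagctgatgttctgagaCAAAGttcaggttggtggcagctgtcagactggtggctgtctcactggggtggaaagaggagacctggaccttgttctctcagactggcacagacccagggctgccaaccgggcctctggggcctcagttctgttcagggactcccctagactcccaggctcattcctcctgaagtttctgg
Apoa5, chr9:46268358-46268607, plus strand: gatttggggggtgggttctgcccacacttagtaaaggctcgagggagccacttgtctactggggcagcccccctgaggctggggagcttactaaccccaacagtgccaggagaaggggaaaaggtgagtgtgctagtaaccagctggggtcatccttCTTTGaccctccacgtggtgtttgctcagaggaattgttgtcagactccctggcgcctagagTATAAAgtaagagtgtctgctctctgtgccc
Mttp, chr3:138143419-138143668, minus strand: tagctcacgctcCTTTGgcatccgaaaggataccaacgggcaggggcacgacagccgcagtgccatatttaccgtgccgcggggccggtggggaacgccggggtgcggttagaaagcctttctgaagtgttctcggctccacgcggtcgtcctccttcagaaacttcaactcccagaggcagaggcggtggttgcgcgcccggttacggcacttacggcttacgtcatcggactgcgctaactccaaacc
CAAAG on either strand is present in 48.6% of the 32851 windows of this length in the table, TATAAA in 12.4% and the nuclear receptor half-site AGGTCA in 14.0%. The Apoa4 window holds 1 CAAAG, the Mttp window 1 on the opposite strand, and the Apoa5 window 1 on the opposite strand and 1 TATAAA starting 31 bases before the start. None of these 3 windows holds AGGTCA. The Apoa5 gene has a second annotated start whose window overlaps the first. Of the 10 genes, 9 had at least 1 window in the table. Apoa1, Apoc3, Apoa4 and Apoa5 are neighbors on this chromosome.

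By first-named probes, Mttp was the only gene of the 10 whose arrays with exchanged dyes shared a direction at every month. At 1 month the log2 ratio was -0.12 with alcohol in Cy5 and -0.21 with alcohol in Cy3. At 2 months it was 0.32 and 0.12, and at 4 months 0.31 and 0.02. Both arrays were below 0 at 1 month and all 4 later arrays were above 0. The means were -0.17 ± 0.06, 0.22 ± 0.14 and 0.16 ± 0.21, or 0.890-fold, 1.17-fold and 1.12-fold. Ratios with the same direction on both arrays and at least as large were found for 10.4%, 7.34% and 9.94% of all probes at these months, and 3.26% of all probes had 1-month arrays opposite in sign to all 4 later arrays. The effect over the months was 0.07 ± 0.10 (SE, n = 3 months; limma, adjusted p = 0.857) and the slope per doubling of time 0.17 ± 0.10 (adjusted p = 0.824). The 1-month arrays were on a slide of their own and the 2-month and 4-month arrays on another, so 1 month against later and slide cannot be told apart. Mttp had the dimmest probe of the set, at 0.753% to 2.20% of the saturation limit.

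Apob, the protein that Mttp's product loads with lipid, was measured by 5 probes, none of which reached 1.5-fold at any month. For the first-named probe the ratios with alcohol in Cy5 and in Cy3 were 0.37 and -0.22 at 1 month, -0.01 and 0.33 at 2 months, and -0.16 with 0.19 on the 4-month arrays. The arrays of each month were on opposite sides of 0. The means were 0.08 ± 0.42, 0.16 ± 0.24 and 0.02 ± 0.25. Over the 5 probes the monthly means ran from -0.10 to 0.13 at 1 month, from -0.12 to 0.30 at 2 months and from -0.24 to 0.02 at 4 months, with 4, 2 and 1 of 5 above 0. The probes thus disagreed in sign at every month. The effect over the months was 0.09 ± 0.06 for the first-named probe and ran from -0.15 to 0.09 over the 5 probes, with adjusted p from 0.623 to 0.933 (limma). The lowest of these, -0.15 ± 0.06, belonged to probe A_51_P470542, which was at -0.10, -0.12 and -0.23 and on both arrays below 0 at 4 months.

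Apoa1, the main protein of high density lipoprotein, had the largest averaged ratio of the set. With alcohol in Cy5 its ratio was 0.26, 0.71 and 1.23 (1, 2 and 4 months). With alcohol in Cy3 it was -1.47, -0.99 and -1.34. Alcohol was thus higher on every array where it carried Cy5 and lower on every array where it carried Cy3. The means were -0.61 ± 1.23, -0.14 ± 1.20 and -0.05 ± 1.82, and the 1-month mean, 0.656-fold, was smaller than the spread of its 2 arrays. The Apoa1 probe is printed as 10 spots on each array. The SD over spots of an array was 0.09 to 0.28, below the SD of 1.20 to 1.82 between the arrays of a month. In the 1-month control pool labeled with Cy5, 4 of 10 Apoa1 spots were saturated, with 18.3% to 34.9% of their pixels at the limit. The mean over all 10 spots was 10.5%. On the saturated spots the ratio of alcohol over control is an upper bound. The effect over the months was -0.27 ± 0.12 (limma, adjusted p = 0.633), and -0.099 without the 1-month value. The slope of 0.28 ± 0.10 per doubling of time had an unadjusted p of 0.0422 and an adjusted p of 0.664, also by limma.

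Apoa2, the second protein of high density lipoprotein, followed the dye as Apoa1 did. Its ratios with alcohol in Cy5 were 0.55, 0.43 and 0.68, and with alcohol in Cy3 -0.48, -0.91 and -0.97, at 1, 2 and 4 months. The means of 0.04 ± 0.73, -0.24 ± 0.95 and -0.14 ± 1.17 were all smaller than the spread between arrays. Lcat, the plasma enzyme that esterifies cholesterol on these particles, was at 0.17 and 0.05 on the arrays of 1 month, -0.48 and 0.16 at 2 months, and 0.06 with 0.14 on the 4-month arrays. Its arrays shared a direction at 1 month, with a mean of 0.11 ± 0.08, and at 4 months, with a mean of 0.10 ± 0.05. At 2 months they did not, at -0.16 ± 0.45. Ratios as large in the same direction were found for 14.8% of all probes at 1 month and 12.3% at 4 months. Apom, a lipocalin carried on high density lipoprotein, was at 0.03 and 0.10 at 1 month, -0.17 and 0.13 at 2 months, and -0.01 with 0.52 on the 4-month arrays. The 4-month mean was 0.26 ± 0.38, or 1.19-fold. The effects over the months were -0.11 ± 0.08 for Apoa2, 0.02 ± 0.08 for Lcat and 0.10 ± 0.08 for Apom (limma, adjusted p = 0.721, 0.966 and 0.752).

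Apoa4, an exchangeable apolipoprotein made by intestine and liver and known to be raised in fatty mouse liver, was lower in alcohol on both arrays at 1 month. The values there were -0.71 with alcohol in Cy5 and -0.25 with alcohol in Cy3, a mean of -0.48 ± 0.32 or 0.718-fold, short of the 1.5-fold limit. Of all probes, 1.14% had a mean at least as low with both arrays of that month below 0. At 2 months the arrays gave 0.65 and -0.11 and at 4 months 1.15 and -0.70. The later means of 0.27 ± 0.54 and 0.22 ± 1.31 did not exceed the spread between arrays. The effect over the months was 0.01 ± 0.17 (limma, adjusted p = 0.995) and the slope 0.35 ± 0.14 per doubling of time (adjusted p = 0.700). Intestinal markers, 8 genes with a probe such as Fabp2 and Vil1, had a median ratio of -0.21 at 1 month and of 0.04 and 0.08 later, with 0 of 8 changed at any month. Fabp2 itself, which no naming rule selected, was at -0.52 at 1 month. Their part in the Apoa4 ratio was not tested.

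Apoa5, a liver apolipoprotein that promotes the lipolysis of triglyceride, was higher in alcohol on both arrays at 2 months and by both of its probes. The first-named probe gave 0.10 with alcohol in Cy5 and 0.76 with alcohol in Cy3, a mean of 0.43 ± 0.46 or 1.35-fold. The second probe gave 0.12 and 0.77, a mean of 0.44 ± 0.46. The mean did not exceed the spread between the arrays, but did with normexp and loess, at 0.47 ± 0.23 and 0.46 ± 0.37 for the 2 probes. Of all probes, 2.51% had a mean at least as high as that of the first-named probe with both arrays above 0. At 1 month the first-named probe was at -0.14 and 0.35, and at 4 months at -0.20 and 0.21, with means of 0.10 ± 0.35 and 0.00 ± 0.29. The effect over the months was 0.18 ± 0.10 (limma, adjusted p = 0.674), and 0.054 without the 2-month value. The 5 genes whose 6 array ratios lay closest to those of this probe, by Euclidean distance over 6 arrays among 27896 probes, were Pla2g2e, Taf1, Vac14, Ppp3cc and 4933428G09Rik, at distances of 0.19 to 0.30 on the log2 scale.

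Apoc3, an inhibitor of triglyceride clearance, had 2 probes, both with averaged ratios below 0 at all months. The first-named probe gave 0.11 and -0.58 at 1 month, 0.18 and -0.22 at 2 months, and 0.17 with -0.29 on the 4-month arrays. The sign followed the dye on every array. Its means were -0.23 ± 0.49, -0.02 ± 0.29 and -0.06 ± 0.32, and those of the second probe were -0.11, -0.17 and -0.09. The effects over the months were -0.10 ± 0.07 and -0.12 ± 0.06 (limma, adjusted p = 0.723 and 0.642). Apoe, the ligand by which remnants are taken up by liver receptors, showed the largest spread of the set. Its ratios with alcohol in Cy5 were 1.04, 1.20 and 1.66, and with alcohol in Cy3 -1.002, -1.49 and -1.59. The means were 0.02 ± 1.44, -0.15 ± 1.90 and 0.04 ± 2.30, with an effect over the months of -0.03 ± 0.07 (adjusted p = 0.923, limma), which includes the saturated 1-month value described next and was -0.054 without it. At 1 month all 10 Apoe spots were saturated in the pool labeled with Cy5 on each array, with 82.4% and 86.9% of pixels at the limit. The ratios of that month are therefore bounds in opposite directions, and their mean has no defined sign. Neither pool was saturated on both arrays, and no Apoe spot was saturated at 2 or 4 months.

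The part of a ratio that follows the dye was taken as the log2 ratio with alcohol in Cy5 minus that with alcohol in Cy3, divided by the number of arrays. It was positive, with the Cy5 pool brighter, for Apoe at 1.02, 1.35 and 1.63 at 1, 2 and 4 months, which is 2.03-fold, 2.54-fold and 3.09-fold. With the Cy5 channel saturated, the 1-month values of Apoe are lower bounds, and for Apoa1 that of 1 month is one on the saturated spots. For Apoa1 it was 0.87, 0.85 and 1.29, for Apoa2 0.51, 0.67 and 0.83, and for Apoc3 0.34, 0.20 and 0.23. Apoa4 was at -0.23 at 1 month and at 0.38 and 0.93 later. Apob differed in sign, and its probe A_51_P436690 was at -0.24, -0.68 and -1.05, so that there the Cy3 pool was brighter. Over all probes the SD of the dye part was 0.17, 0.31 and 0.35, and the SD of the averaged ratio was 0.19, 0.23 and 0.27. Of the 10 genes, 7 were among the brightest 379 probes. Those bright probes had a median dye part of 0.04, 0.05 and 0.30, and 7.39%, 10.3% and 31.9% of them exceeded 0.5, as did 3, 3 and 4 of the 10 genes and 0.680%, 4.35% and 5.90% of all probes. On the array with alcohol in Cy5 taken alone, 2, 3 and 4 of 10 genes passed 1.5-fold at the 3 months, beside 3.11%, 10.4% and 10.9% of all probes. On that with alcohol in Cy3, 2, 4 and 4 of 10 did, beside 3.02%, 10.1% and 17.8%. Both arrays had the same direction for 4, 2 and 2 of the 10 genes, beside 45.8%, 35.1% and 32.2% of all probes. In the dye parts of the 10 genes, values at 2 and 4 months, which share a slide, correlated across genes with Pearson's r = 0.96. Between slides r was 0.82 for 1 and 2 months and 0.73 for 1 and 4 months. Over all 37922 probes these correlations were 0.75, 0.38 and 0.39. Genes are not independent replicates, and the cause of these correlations was not tested.

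**Figure D2:**
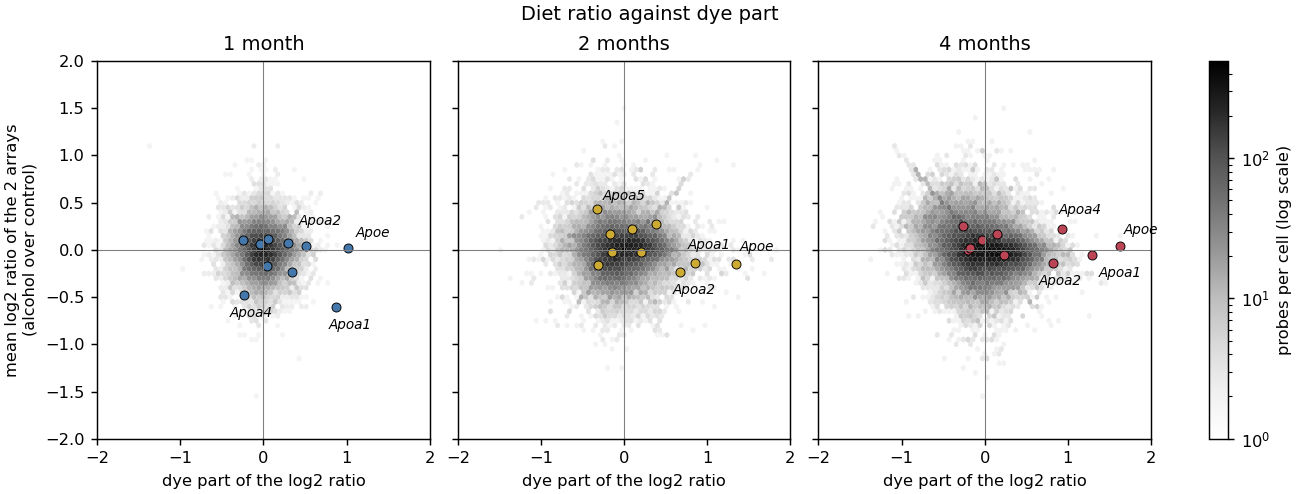
Mean log2 ratio of alcohol over control of the 2 arrays (y axis) against the dye part of the log2 ratio (x axis), with a panel for each month. Gray cells count all probes tested on a log scale, with 13, 13 and 39 probes beyond the drawn range at 1, 2 and 4 months, and colored points are the 10 genes. Apoe and Apoa1 lie far to the right of most probes at every month, at 1.02 (a lower bound) to 1.63 and 0.85 to 1.29, and the height of Apoe at 1 month rests on saturated spots.

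Background correction by normexp with loess normalization gave dye parts of 1.26, 1.62 and 1.80 for Apoe and 1.11, 1.09 and 1.47 for Apoa1. Those of Apoc3 were 0.48, 0.51 and 0.55, and those of the first-named Apob probe turned from 0.30, -0.17 and -0.18 to 0.48, 0.08 and 0.07. The averaged ratios with it were -0.58 for Apoa1 and -0.46 for Apoa4 at 1 month.

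The level of a gene in each pool was taken as the log2 of its processed signal over the 75th percentile of its channel, which compares pools within a probe and not genes with each other. All 16 probes exceeded background well in each pool on each array. The order of the 6 pools changed with the scaling for all 10 genes. With this scaling each of the 10 genes had at least 1 gap between neighbors in the order that exceeded the SD of both pools, and with loess and Aquantile scaling 4 genes did, namely Apoa4, Apoa5, Lcat and Mttp. Mttp was highest in the 1-month pools, at 1.31 ± 0.08 in control and 1.15 ± 0.02 in alcohol, above 0.74 ± 0.23 in the 4-month alcohol pool, and this gap exceeded both SDs with either scaling. Lcat was lowest in the 1-month pools, below 3.75 ± 0.04 in the 4-month control pool, also with either scaling. Apoa4 was highest at 2 months, at 5.57 ± 0.27 in alcohol and 5.31 ± 0.27 in control, and lowest in the 1-month alcohol pool, at 4.02 ± 0.07 against 4.49 ± 0.25 in the 1-month control pool, and both extremes were the same pools with Aquantile scaling.

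For Apoa1 the levels were 6.24 ± 0.48 in control and 5.64 ± 0.75 in alcohol at 1 month, then 5.55 ± 0.49 with 5.41 ± 0.70, then 4.45 ± 0.84 with 4.40 ± 0.98. Those of Apoe were 6.14 ± 0.94 and 6.16 ± 0.51, then 5.86 ± 0.89 and 5.71 ± 1.02, then 4.33 ± 1.12 and 4.37 ± 1.18. In both genes the gap between 2 and 4 months exceeded both SDs with this scaling but no gap did with Aquantile scaling. The 1-month levels of Apoe rest on saturated Cy5 spots and are lower bounds, so that alcohol and control have no order there, and that of Apoa1 in the 1-month control pool is a lower bound on its saturated spots. The difference of the control pools between 2 and 4 months was -0.44 for Apoa5 and -0.56 for Apob, and 0.38 and 0.02 with Aquantile scaling, so that no order of these months is given for them.

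Between the pools of the same month, neighbors in the order or not, 7 of 30 gaps exceeded both SDs, in 5 genes, with 4, 1 and 2 of 10 genes at 1, 2 and 4 months. Of all probes 25.3%, 18.2% and 12.8% did so, and these SDs are technical, over 2 arrays of the same RNA. With Aquantile scaling the counts were 2, 2 and 1 of 10, beside 20.2%, 17.6% and 11.7% of all probes, and the gaps of Apom and Mttp were not among them. Apoa4 at 1 month, given above, was lower in alcohol, and Apoa5 at 2 months was higher, at 5.39 ± 0.29 against 4.97 ± 0.17 in control. Lcat was at 3.05 ± 0.09 in alcohol and 2.93 ± 0.01 in control at 1 month, and at 3.85 ± 0.09 and 3.75 ± 0.04 at 4 months. Apom was at 2.41 ± 0.06 and 2.35 ± 0.00 at 1 month, and at 3.11 ± 0.20 and 2.85 ± 0.17 at 4 months. Mttp was at 1.15 ± 0.02 in alcohol and 1.31 ± 0.08 in control at 1 month. Between months, the level of Lcat in the control pools differed by 1.13 at 2 months from that at 1 month, and that of Mttp by -0.89, with -0.39 for the median of all probes. Relative to that median the differences were 1.51 and -0.50. With loess and Aquantile scaling the differences relative to the median were 0.73 for Lcat and -1.39 for Mttp. From 2 to 4 months Apoe in the control pools differed by -1.54 relative to the median of all probes, or by -0.90 with Aquantile scaling. The brightest 379 probes had a median difference of -0.81 over the same months, and -0.04 with Aquantile scaling. Pools of different months were never hybridized together, and each value rests on 1 pool.

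**Figure D3:**
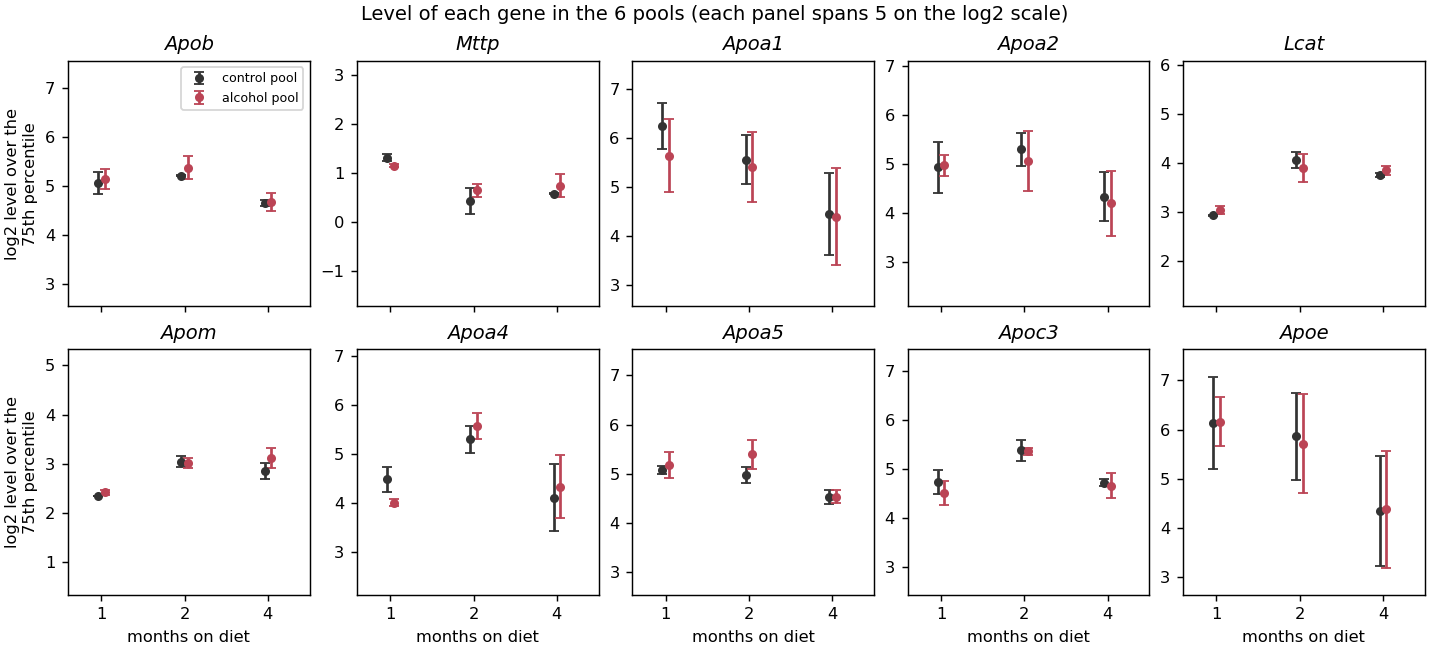
Level of each gene's first-named probe (y axis, log2 of the processed signal over the 75th percentile of its channel) in the control and alcohol pools at 1, 2 and 4 months on diet (x axis, log scale). Points are the mean and bars the SD of the 2 arrays, and every panel spans 5 on the log2 scale at its own height. The bars of Apoe and Apoa1 are wide, up to 1.18 and 0.98, and those of Mttp and Lcat are narrow.

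The other genes of lipoprotein handling were compared with the 10 genes by lists written from general knowledge. Of 13 other genes named for apolipoproteins or related to them, which include the RNA-editing enzyme gene Apobec1 and the receptor gene Apobr, 0 changed at any month, and their median ratio was 0.01, -0.18 and -0.09 at 1, 2 and 4 months. Apoc2, the activator of lipoprotein lipase, was at -0.37 and -0.35, -0.30 and -0.34, and -0.02 and -0.52 on the arrays of the 3 months. It was below 0 on all 6 arrays, as 3.86% of all probes shared a sign on 6 arrays, with an effect of -0.32 ± 0.06 (limma, adjusted p = 0.620). Apoc1 followed the dye as Apoe did, at 1.41 and -1.28, 0.88 and -1.86, and 1.12 and -1.85, with an effect of -0.26 ± 0.12 (adjusted p = 0.634, limma). The saturation of Apoc1 is not given here, and its 1-month ratios may be bounds. Of 22 genes of particle assembly and secretion, 0 changed at any month, with medians of -0.02, 0.00 and -0.01. Aadac, a lipid hydrolase of the endoplasmic reticulum, had an effect of -0.32 ± 0.08 and Pdia4, a disulfide isomerase there, -0.20 ± 0.06 (limma, adjusted p = 0.620 for both). Pdia4 had opposite signs on the arrays of every month, -0.42 and 0.08, -0.57 and 0.16, then -0.73 and 0.30. Aadac was at -0.23, -0.80 and -0.95 with alcohol in Cy5 but at -0.02, -0.01 and 0.09 with alcohol in Cy3. Of 16 genes of plasma remodelling and efflux, 0 changed, with medians of 0.02, 0.03 and 0.04. In that list Pon1, an esterase of high density lipoprotein, was at 0.44 ± 0.04 at 1 month, and its effect was 0.18 ± 0.10. Its arrays had opposite signs at 2 months, -0.34 and 0.38, and at 4 months, -0.45 and 0.58. Angptl4, an inhibitor of lipoprotein lipase, had an effect of 0.16 ± 0.08 (limma, adjusted p = 0.684 and 0.667), with opposite signs on its arrays at 1 and 4 months.

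Particle receptors and regulators held the genes that met the rule. Of 15 receptor genes 2 were raised at 1 month, 0 at 2 months and 1 at 4 months, and none was lowered, beside 0.562%, 1.17% and 2.03% of all probes raised. The medians were 0.07, 0.00 and 0.00. Of the 2 probes of Cd36 only the brighter is given here. Cd36, a receptor for oxidized particles and a transporter of fatty acids, was at 1.35 and 1.37 on the arrays of 1 month, a mean of 1.36 ± 0.01. At 2 months it was at -0.07 and 0.58, and at 4 months at 0.06 and 0.63. The 1-month arrays lay above all the later ones. Its effect over the months was 0.65 ± 0.23 (limma, adjusted p = 0.620). The other raised receptors were Sdc1, a heparan sulfate proteoglycan, at 0.64 ± 0.27 at 1 month, and Vldlr, the receptor for very low density lipoprotein, at 0.72 ± 0.45 at 4 months. Both were named after their values were seen. Cubn, chosen by its mean ratio, was in neither pool well above background on both arrays of any month. Its 4-month arrays were at 0.00 and 2.22, so no fold is given for it. The paper lists Cubn among its genes of rising induction.

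Of 24 regulators 0 changed at 1 month, 1 was lowered at 2 months and 2 at 4 months, beside 0.63%, 1.28% and 1.46% of all probes lowered. The medians were 0.01, 0.03 and 0.00. Srebf1, the factor that drives genes of fatty acid synthesis, was at -0.76 and -0.36 at 1 month, -0.98 and -0.53 at 2 months, and -0.60 with 0.59 on the 4-month arrays. It was below 0 on 5 of 6 arrays, with means of -0.56 ± 0.29, -0.75 ± 0.32 and 0.00 ± 0.84 and an effect of -0.44 ± 0.16 (limma, adjusted p = 0.620). Foxa2, a hepatocyte factor that binds regulatory sites of apolipoprotein genes, was at 0.18 and 0.24 at 1 month, -0.62 and -0.32 at 2 months, and -1.16 with -0.86 on the 4-month arrays. Its arrays of each month shared a direction, above 0 at 1 month and below it afterwards. The effect over the months was -0.42 ± 0.23 (limma, adjusted p = 0.670). Nr1d1, a clock repressor also lowered at 4 months, was at -0.62 ± 0.19 and was named after its value was seen.

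**Figure D4:**
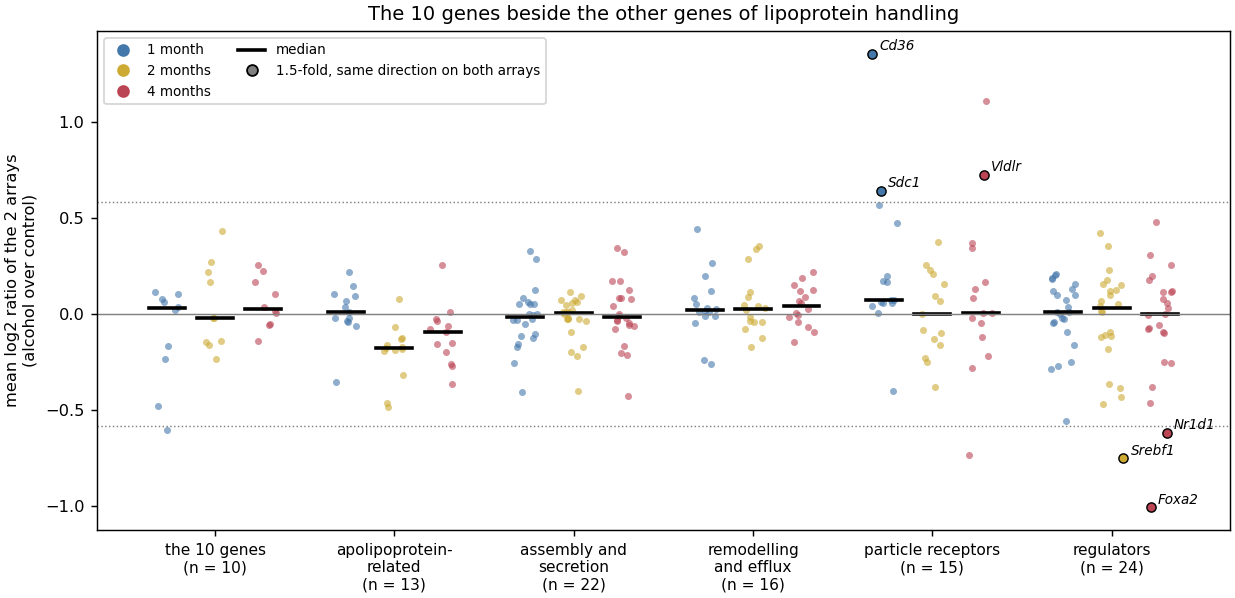
Mean log2 ratio of the 2 arrays of a month (y axis) for the 10 genes and 5 lists of related genes (x axis, n is the number of genes with a probe). Points are genes, colored by month, black bars are medians, dotted lines mark 1.5-fold, and outlined points are named genes that reached it with the same direction on both arrays. The 10 genes and the first 3 lists hold no outlined point. The receptors and the regulators hold 3 each.

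Between 73.3% and 90.3% of spots were well above background over channels and arrays. The tissue label was met by 8 of 8 hepatocyte markers with a probe, such as Alb and Ttr, which were well above background in all pools. Their median ratio was 0.14, -0.12 and -0.02 at the 3 months, and the log2 ratio of their summed signal was 0.12, 0.00 and 0.13, with 0, 1 and 2 of 8 raised. Endothelial markers had a median of 0.36 at 1 month, with 2 of 10 raised, and 0.05 and -0.04 later, with 0 changed. Pancreatic acinar markers had a median of -0.05, 0.02 and 0.70, with 8 of 14 raised at 4 months. Kupffer cell and myeloid markers had a median of 0.23 at 1 month, with 1 of 9 raised, and -0.02 and 0.04 later, with 1 of 9 raised at 2 months. Blood cell markers had a median of 0.17 at 1 month, with 2 of 9 raised and a log2 ratio of summed signal of 1.48, and medians of -0.02 and -0.01 later, with 0 and 2 raised and 1 lowered at each. Stellate markers had 1 of 10 lowered at 4 months, and cholangiocyte and adipose markers had 0 changed at any month. Of all probes, 0.562%, 1.17% and 2.03% were raised at the 3 months and 0.63%, 1.28% and 1.46% lowered. The 10 genes had 0 changed at any month, and the part of these cell markers in their ratios was not tested. In whole liver, fewer cells of a type and less RNA per cell cannot be told apart.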

How the data were processed

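Liver RNA pools of 6 mice were compared on 6 two-color Agilent arrays, and p-values therefore measure the spread between months only. The authors deposited the scanner output of Feature Extraction 9.1.1.1, with a signal intensity per channel, corrected for background and dye, and a log10 ratio per spot (Cy5 divided by Cy3). The authors also deposited a value table of log10 ratios, already alcohol over control, which matched the scanner output to 0.02 on the log2 scale in 100% of 40929 single-spot probes. Its columns have a median of 0.

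Ratios were turned to alcohol over control, put on the log2 scale, and averaged over spots and then over the 2 arrays of a month. Control spots were left out, and no spot carried an outlier flag. Where a gene has several probes, the brightest is named first. Levels are the log2 of the deposited signal over the 75th percentile of its channel. limma 3.58.1 in R 4.3.3 tested the 37922 probes that any channel of any array measured well above background, with Benjamini-Hochberg adjustment. Both limma fits were tested on simulated data with known effects. Other steps used Python 3.11.15, pandas 2.3.3 and numpy 2.4.6. Promoter sequences came from a RefSeq table of GRCm38.p6. Symbols of the array design were updated where a RefSeq accession matched, for 22951 of 25510 probes.

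The members, lists and tests were chosen with earlier results of these data known. Named from the lists were genes changed at 2 or more months, otherwise the 2 with the largest mean ratio. The most alike genes were sought for the gene with the largest mean ratio and no saturated spot. Alternatives were normexp (offset 50) with loess, the deposited table, each array alone, median centring, other filters and call rules, all probes of a gene, Aquantile levels, leaving out a month, no moderation and slide units.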

Additional observations from a re-analysis of the deposited data

Results flagged for a closer look

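Among the 10 genes and those named from the lists by rule, Mttp and Foxa2 had both arrays of 1 month on one side of 0 and both arrays of each later month on the other. In the lists of lipoprotein handling, Apoo and Nr0b2 did so too, and were named after their values were seen. For Mttp the log2 ratio of alcohol over control was higher by 0.39 at 2 months than at 1 month and by 0.33 at 4 months. For Foxa2 the difference from 1 month was -0.68 at 2 months and -1.22 at 4 months. The difference between months was not tested within a gene, as a month has 1 pair of pools, and month and slide cannot be told apart. The same opposition of sign was found for 9.16% of all probes between 1 and 2 months and 7.72% between 1 and 4 months.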

How the results depend on the processing

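None of the 10 genes was called by limma under any setting run, and the smallest adjusted p of a first-named probe was 0.171 for the effect and 0.366 for the slope. Over all probes the effect called 9 with normexp and loess, 6 where a probe had to be above background in each pool of every array, and 1 with the 2 slides as units, an alternative chosen after seeing the data. It called 0 under the other settings, including each left-out month (0 to 0). The slope called 50 with normexp and loess and 0 otherwise. Slide as a random block could not be fitted, since 3 values on 2 slides gave no correlation. The monthly ratio itself pairs the pools of a month. No further paired analysis was possible because the 2 arrays of a month hold the same pools.

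From the arrays with alcohol in Cy5 alone, 2, 3 and 4 of 10 genes changed at 1, 2 and 4 months. The shares of all probes were 3.11%, 10.4% and 10.9%. From those with alcohol in Cy3 alone, 2, 4 and 4 of 10 genes changed, beside 3.02%, 10.1% and 17.8% of all probes. Without the condition on single arrays, Apoa1 alone was counted at 1 month, which made 1 of 10. Its 1-month arrays were on opposite sides of 0, at 0.26 and -1.47, with 4 of 10 control spots saturated on the latter. The share of all probes under that rule was not computed, so this count cannot be set against the background. The medians at 1, 2 and 4 months were 0.14, 0.25 and 0.24 with alcohol in Cy5 alone and -0.24, 0.01 and -0.135 with alcohol in Cy3 alone.

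Effects of uncalled genes changed sign with alcohol in Cy5 alone for Apoa1 (0.73), Apoa2 (0.56), Apoa5 (-0.079), Apoc3 (0.15), Apoe (1.30), Apom (-0.052) and Lcat (-0.081). With alcohol in Cy3 alone they did for Apoa4 (-0.35) and Mttp (-0.023). The Apoa4 effect was -0.12 with slides as units and Apob -0.025 over all its probes. Without each month in turn, the effect ran from -0.38 to -0.099 for Apoa1, from -0.19 to -0.053 for Apoa2, from 0.054 to 0.27 for Apoa5, from 0.046 to 0.12 for Apob, from -0.15 to -0.039 for Apoc3, from 0.021 to 0.16 for Apom, from -0.13 to 0.25 for Apoa4, from -0.030 to 0.11 for Lcat, from -0.063 to 0.028 for Apoe and from -0.0013 to 0.19 for Mttp. Slopes changed sign with alcohol in Cy3 alone for Apoa4 (-0.23), Apob (0.21), Apoe (-0.29) and Lcat (0.044), and with alcohol in Cy5 alone for Apoa2 (0.067) and Apom (-0.017). The Lcat slope did so with median centring (0.0013), with normexp and loess (0.0093) and on months (0.016). With a month left out, the slope takes the sign of the change between the remaining means. Without the 1-month value the sign turned for Apoa2, Apoa4, Apoc3, Lcat and Mttp. Means at 2 and 4 months were 0.27 and 0.22 for Apoa4 and 0.22 and 0.16 for Mttp. Without the 4-month value it turned for Apoa5, Apob, Apom and Apoe, the last with its saturated 1-month value. Without the 2-month value none turned, and Apoa1 kept its sign throughout. The cause was not tested. With 1 pair of pools a month and no variation between mice, small diet differences were not detectable.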
